A study of Mus musculus with 16 samples.

Results

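The question was whether loss of MCPIP1 in keratinocytes and loss in myeloid cells add up when both are lost in the same skin. It was read from a 2 x 2 factorial design in which each Cre transgene is one factor, and the quantity of interest is the interaction, EMdKO minus EKO minus MKO plus Control on the log2 scale. All 16 libraries of the series enter it, 4 mice per group, and every measured gene was examined. All mice were 12 weeks old and carried floxed Zc3h12a on both alleles, Zc3h12a(loxP/loxP). Control mice had no Cre, EKO mice added Krt14Cre(Tg/Wt), MKO mice added LysMCre(Tg/Wt), and EMdKO mice carried both. The Krt14 promoter drives Cre in keratinocytes and LysM-Cre acts in macrophages and neutrophils, whereas the RNA came from whole skin with all of its other cells. The labels name neither the floxed exons nor the counted stretch of the gene, and control mice without floxed alleles or with Cre alone are not part of the comparison.

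Zc3h12a encodes MCPIP1, or Regnase-1, an endoribonuclease that cleaves stem-loop structures in the transcripts of cytokines and other inflammatory genes. Keratinocytes and resident macrophages of the skin signal to each other through IL-1 and IL-36 cytokines, chemokines and ligands of the EGF receptor, so loss of the enzyme in one compartment can act on RNA made in the other. An interaction of 0 means that the Krt14-Cre difference was the same with and without LysM-Cre, and equally that the LysM-Cre difference was the same with and without Krt14-Cre. A positive value means that EMdKO stood above the sum of the single differences.

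Each library gave 6962474 to 12086327 counts on 23930 amplicon targets, and 13633 genes had enough counts for a test. Levels are given as CPM, the count normalized to sequencing depth, and are compared only within a gene, since each gene is counted on an amplicon of its own. Some libraries stood apart from their groups in sets of genes. EKO mouse 1 had Control-like levels of the epidermal and IL-36 genes that were high in EKO mice 2 to 4. Control mouse 1 and EMdKO mouse 3 were high in hair shaft genes, Control mouse 2 in chemokine and interferon response genes, and MKO mouse 1 in skeletal muscle genes. Values without a library are given where leaving it out moved a described result the most. The labels call the mice separate animals, and nothing further is given on litters or housing.

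Zc3h12a itself was the first gene examined, as a check of the labels. Sorted within each group, its level was 19.4, 21.7, 27.4 and 30.3 CPM in Control, 17.1, 24.9, 29.2 and 35.0 CPM in MKO, 7.07, 7.4, 8.41 and 11.7 CPM in EKO and 4.41, 5.47, 5.69 and 5.71 CPM in EMdKO. Both Krt14-Cre groups lay wholly below both groups without it, and EMdKO lay wholly below EKO. Averaged over both LysM-Cre backgrounds, Zc3h12a fell by 1.92 on the log2 scale with Krt14-Cre (edgeR quasi-likelihood, Benjamini-Hochberg adjusted p = 4.21e-05). The difference was -1.52 ± 0.23 (log2, SE) without LysM-Cre and -2.32 ± 0.23 with it, while MKO stood within 0.10 ± 0.22 of Control. Multiplying the mean levels of the single knockouts relative to Control gives 9.28 CPM for EMdKO, against the 5.32 ± 0.617 (SD, n = 4) that was measured. The interaction was -0.80 ± 0.32, with a 95% interval of -1.48 to -0.12 and an unadjusted p of 0.0245 in the edgeR fit over all genes, which did not pass adjustment (0.999). With single libraries left out, it ranged from -0.97 without MKO mouse 1 to -0.62 without EKO mouse 1. The unadjusted p in edgeR was 0.0044 and 0.0667 in these 2 fits. In whole skin, a smaller number of cells of a type and less RNA per cell cannot be told apart.

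No gene passed the test for the interaction. The edgeR quasi-likelihood test called 0% of the 13633 genes at an adjusted p under 0.05, and the smallest unadjusted p was 0.000336. At the unadjusted threshold of 0.05 there were 465 genes, or 3.41%, which is fewer than the 682 that this threshold passes when no gene differs. Of these, 303 were positive (2.22% of the genes tested) and 162 were negative (1.19%). The median interaction over all genes was 0.01 on the log2 scale, with 7016 genes above 0 and 6617 below. DESeq2 called 3 hair keratin-associated genes, and limma-voom and all 16 edgeR fits that left out 1 library called none.

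The absence of calls has a stated precision. The standard error of an interaction was 0.34 for the median gene, against 0.24 for a difference between 2 groups. The median 95% interval reached 0.72 on either side of the estimate. For 7133 genes, or 52.3%, the whole interval lay between -1 and 1, so a departure from additivity of more than 2-fold lies outside the interval of these genes. The half-width of the interval was at most 1 for 74.2% of the genes and larger for 3511 genes, in which a 2-fold departure was within the error of the estimate. A p that misses the threshold does not show that effects add up.

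**Figure D1:**
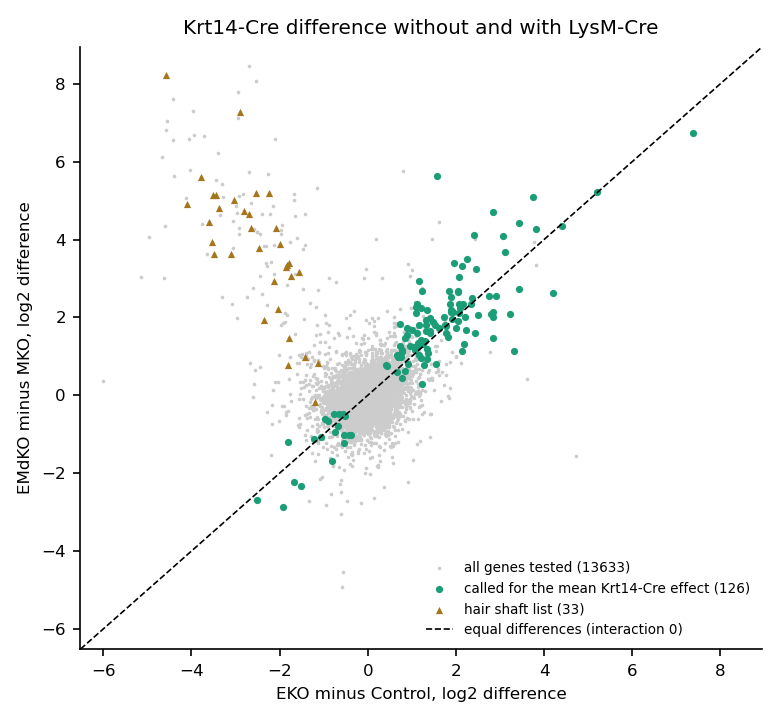
Log2 difference between EMdKO and MKO (vertical axis) against the log2 difference between EKO and Control (horizontal axis) for 13633 genes, with the dashed line where both are equal and the interaction is 0. The 126 genes called for the mean Krt14-Cre effect (green) follow the line on both sides of 0, and the 33 hair shaft genes (triangles) lie to the upper left, with medians of -2.47 and 3.89.

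The genes that changed with Krt14-Cre in whole skin, of whatever cell type, were examined next for additivity. In a balanced design the mean Krt14-Cre effect is uncorrelated with the interaction where the 4 groups have equal error. The errors in this fit were unequal for some genes, as for Chil1 with 0.75 without LysM-Cre and 0.92 with it. Choosing genes on the mean effect is then not wholly independent of their interaction. Averaged over both LysM-Cre backgrounds, 126 genes were called (0.924% of the genes tested), 106 higher and 20 lower with Krt14-Cre. The count ran from 40 without EKO mouse 2 to 356 without EKO mouse 1, and leaving out any single library other than EMdKO mouse 2 or 4 moved it by more than 1.5 times. Among the 106 higher genes the median log2 difference was 1.67 without LysM-Cre and 1.86 with it. Their interactions ran from -2.17 to 4.05 with a median of 0.21, and 70 were above 0 and 36 below, beside 51.5% of all genes above 0. Of the 106 genes, 4 reached an unadjusted p under 0.05, 2 in each direction, beside 3.41% of all genes tested. The 20 lower genes had medians of -0.80 and -1.02 and a median interaction of -0.15, and Zc3h12a was the 1 member with an unadjusted p under 0.05. The intervals are wide for the higher genes, with a median reach of 1.45 on either side, beside 0.72 for all genes. Of the 106 intervals, 8 lay wholly within -1 to 1, beside 52.3% over all genes.

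The IL-36 ligand genes Il1f6, Il1f8 and Il1f9 and the IL-1 alpha gene Il1a, whose products keratinocytes release on stress, rose with Krt14-Cre. Il1f6, which encodes IL-36 alpha, measured 1.61, 1.73, 1.77 and 1.62 CPM in Control mice 1 to 4 and 0.470, 1.64, 1.31 and 0.878 CPM in MKO. It measured 0.516, 92.4, 79.5 and 79.3 CPM in EKO and 34.9, 30.4, 58.5 and 40.7 CPM in EMdKO. Every mouse with Krt14-Cre was above every mouse without it except EKO mouse 1, which was below all Control mice, and EMdKO lay below EKO mice 2 to 4. The log2 difference was 5.21 ± 0.81 without LysM-Cre and 5.21 ± 0.89 with it, and the interaction was 0.00 ± 1.2 (95% interval -2.54 to 2.55). Without EKO mouse 1 the interaction was -0.41 (unadjusted p = 0.33 in edgeR). Taken from the group means of log2 CPM over all libraries instead of the fit, the interaction of Il1f6 was 1.29.

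Of the 10 tested members of the list of interleukin ligands (IL-1, IL-36 and related), 4 were called for the mean Krt14-Cre effect. The share called over all genes tested was 0.924%. The interactions of the 4 called ligands ran from -0.69 to 0.00. Il1f6 had the highest. Il1f8, encoding IL-36 beta, had an interaction of -0.69 ± 0.69, Il1f9, encoding IL-36 gamma, one of -0.32 ± 0.57, and Il1a one of -0.27 ± 0.69. Without EKO mouse 1 these were -1.05, -0.65 and -0.64. None of the 10 reached an unadjusted p under 0.05, and the list's median was -0.27, beside 0.01 for all genes and -0.58 for the list without EKO mouse 1. The interaction of the list's score, the mean log2 CPM over the 10 genes, had the other sign at 0.21 ± 0.62 (SE over mice). Without EKO mouse 1 the score's interaction was -0.35. Il1f5, the receptor antagonist of the IL-36 family, was not called for the mean effect and had an interaction of -0.77 ± 0.54, which was -1.18 without Control mouse 4. Il1b, encoding IL-1 beta, was not called either and had 1.95 ± 1.30. It was 0.22 without Control mouse 2 and 3.72 without EKO mouse 3.

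Of the 7 serpins and stefins tested, which are protease inhibitors, 4 were called for the mean Krt14-Cre effect and 3 were not. Over all genes tested, 0.924% were called for that effect. Serpinb12, a serpin of differentiating keratinocytes, measured 10, 7.34, 22.4 and 16.9 CPM in Control and 15.8, 24.9, 17.0 and 17.1 CPM in MKO. It measured 10.5, 97.0, 126 and 174 CPM in EKO and 39.6, 39.1, 82.3 and 46.9 CPM in EMdKO. EKO mouse 1 again lay within the Control range, and the other 3 EKO mice all lay above the 4 EMdKO mice. The interaction of Serpinb12 was -1.36 ± 0.77 in the fit of all libraries (unadjusted p = 0.097 in edgeR). It was -1.74 without EKO mouse 1 (unadjusted p = 0.00235), a fit in which no gene passed adjustment. Leaving out EKO mouse 4 instead gave -0.97 (unadjusted p = 0.228 in edgeR).

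The other 3 called members were Serpinb3a, Serpinb3b and Stfa3, which inhibit serine or cysteine proteases. Their interactions were -0.66 ± 3.91, -0.82 ± 0.77 and -0.07 ± 1.16. The value of Serpinb3a rests on levels of at most 0.126 CPM in MKO and is not informative. The Serpinb3 and stefin A genes belong to clusters of near-identical copies, so their counts may be shared among copies. Stfa3 measured 12.4, 721, 992 and 698 CPM in EKO mice 1 to 4 and 133, 71.4, 218 and 118 CPM in EMdKO, again with EKO mice 2 to 4 above all EMdKO mice. In MKO it measured between 1.88 and 9.98 CPM and in Control between 7.62 and 47.3 CPM, and these ranges overlapped. The log2 difference of Stfa3 with Krt14-Cre was 4.41 ± 0.80 without LysM-Cre and 4.34 ± 0.84 with it, and its interaction was -0.47 without EKO mouse 1. The members that were not called had interactions of 0.57 (Serpinb2), 1.57 (Stfa1) and -0.25 (Csta1). Over the 7 genes 2 interactions were positive and 5 negative, with a median of -0.25 that was -0.59 without EKO mouse 1, 0.20 without MKO mouse 2 and 0.12 when EKO mouse 3 was left out.

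For genes of the cornified envelope and of secreted keratinocyte proteins the interactions had either sign. Slurp2, a secreted Ly6 protein of keratinocytes, had an interaction of 0.47 ± 1.02, which was 0.08 without EKO mouse 1 and 0.02 without EMdKO mouse 3, and Chil1, a chitinase-like secreted protein, one of 1.35 with a 95% interval of -1.16 to 3.86, and 0.81 without Control mouse 2. Of the 26 tested genes of epidermal differentiation, 5 were called for the mean Krt14-Cre effect, beside 0.924% of all genes tested. Of the 26 genes, 13 had a positive and 13 a negative interaction, with none at an unadjusted p under 0.05. The median was 0.05, and -0.17 without EKO mouse 1. Called members singled out after their values were seen were Lce1g, a late cornified envelope protein, at -0.70 ± 0.98, and Hrnr, which encodes hornerin, at -0.18 ± 0.58. Without EKO mouse 1 they were at -1.08 and -0.53. The 10 basal keratinocyte genes, including Krt14 at -0.33 ± 0.55, had interactions between -0.33 and 0.27.

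The 4 called higher genes with an unadjusted p under 0.05 were Alox8, Elovl3, Pitx3 and Fetub. Alox8, a lipoxygenase of the epidermis, measured 184, 27.3, 6.54 and 2.00 CPM in Control mice 1 to 4, 19.0, 268, 168 and 195 CPM in EKO, 1.10, 2.53, 2.74 and 7.66 CPM in MKO and 108, 73.4, 368 and 153 CPM in EMdKO. The Control mice ran from the MKO level to the EKO level, while MKO and EMdKO did not overlap. Its log2 difference was 1.57 ± 0.98 without LysM-Cre and 5.62 ± 1.09 with it, an interaction of 4.05 ± 1.47 (unadjusted p = 0.0154) that was 1.83 without Control mouse 1 and 1.56 when the hair shaft score of each library was a covariate.

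Elovl3, a fatty acid elongase of the sebaceous gland, measured 109, 57.0, 46.1 and 23.9 CPM in Control and 10.8, 22.6, 22.8 and 16.4 CPM in MKO. It measured 50.1, 144, 170 and 160 CPM in EKO and 90.2, 129, 234 and 102 CPM in EMdKO. MKO lay wholly below the other 3 groups, and the ranges of EKO and EMdKO overlapped. The interaction of Elovl3 was 1.78 ± 0.62 (unadjusted p = 0.012), between 1.30 and 2.04 when single libraries were left out. It was 1.15 after adjusting for the hair shaft score (unadjusted p = 0.0611) and 0.81 in limma-voom (unadjusted p = 0.118). The 22 sebaceous gland genes as a list had 16 positive interactions and a median of 0.43, beside 51.5% positive and 0.01 for all genes.

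The other 2 called genes with an unadjusted p under 0.05 were negative. Pitx3, a homeodomain transcription factor, measured 3.10, 2.59, 2.43 and 2.25 CPM in Control, 5.06, 7.50, 5.10 and 6.83 CPM in EKO, 4.86, 2.65, 2.98 and 3.39 CPM in MKO and 4.81, 4.00, 3.9 and 4.30 CPM in EMdKO. All EKO mice exceeded all EMdKO mice, and the interaction was -0.94 ± 0.33 (unadjusted p = 0.0112). Fetub, which encodes fetuin B and was named after its values were seen, had an interaction of -2.17 ± 0.93 (unadjusted p = 0.0345), with 18.2, 37.3 and 14.6 CPM in EKO mice 2 to 4, 1.75 CPM in EKO mouse 1 and 1.94 to 7.61 CPM in EMdKO.

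The myeloid side of the design gave 6 genes, 0.044% of those tested, all higher with LysM-Cre. They were Marco, Siglece, Gbp2b, Mrgprg, Ebi3 and Cxcl13. The count was 25 without EKO mouse 1, 14 without Control mouse 3 and 12 without EMdKO mouse 4. Their median log2 difference was 2.98 without Krt14-Cre and 2.57 with it, the median interaction was 0.14, and 4 were positive and 2 negative.

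Marco, a scavenger receptor of macrophages, was at or below 0.288 CPM in all 8 mice without LysM-Cre. It measured 2.67, 8.09, 5.84 and 4.39 CPM in MKO and 9.94, 8, 8.37 and 3.88 CPM in EMdKO. The groups with and without LysM-Cre did not overlap, and the ranges of MKO and EMdKO did. The log2 difference was 4.77 ± 0.63 without Krt14-Cre and 5.96 ± 0.72 with it, an interaction of 1.19 ± 0.96 (95% interval -0.84 to 3.22). Siglece, which encodes a sialic acid-binding receptor that dampens myeloid activation, gave 8.16 ± 3.09 CPM in MKO and 8.35 ± 2.33 in EMdKO (SD, n = 4), an interaction of 0.22 ± 0.43 with an interval of -0.70 to 1.14. Ebi3, a subunit of the IL-27 and IL-35 cytokines, gave 12.7 ± 2.71 CPM in MKO and 12.1 ± 2.44 in EMdKO, an interaction of 0.07 ± 0.43 with an interval of -0.84 to 0.97. Ebi3 was the 1 gene of the 6 whose whole interval lay within -1 to 1.

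Mrgprg, a Mas-related G protein-coupled receptor, departed most among the 6. It was at or below 0.788 CPM in all 8 mice without LysM-Cre and measured 9.56, 17.9, 27.9 and 3.51 CPM in MKO and 2.40, 0.727, 3.04 and 2.42 CPM in EMdKO. All MKO mice were above all EMdKO mice, and EMdKO mouse 2 was inside the range of the mice without LysM-Cre. The log2 difference was 5.14 ± 0.78 without Krt14-Cre and 2.53 ± 0.80 with it, so the interaction was -2.61 ± 1.12 (unadjusted p = 0.0347, adjusted p = 0.999 in edgeR), from -3.02 to -2.06 with single libraries left out.

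Cxcl13, the chemokine that attracts B cells, measured 59.4, 236, 191 and 66.8 CPM in MKO and 84.1, 43.1, 103 and 69.4 CPM in EMdKO. These ranges overlapped. In the mice without LysM-Cre, EKO had 11.2 to 14.0 CPM and Control 6.12 to 53.3 CPM, and the interaction was 0.48 ± 0.74, which was 0.10 without Control mouse 3 and 0.87 without MKO mouse 2. Gbp2b, an interferon-induced guanylate-binding protein with close paralogs, had one of -1.15 ± 0.78. General macrophage markers gave a median interaction of -0.13 over 21 genes, which was 0.09 without EKO mouse 3. Of the 21 genes, 6 were positive and 15 negative, beside 51.5% positive over all genes. Lyz2, the gene that hosts LysM-Cre, had an interaction of 0.17 ± 0.42, between -0.09 and 0.41 with single libraries left out.

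**Figure D2:**
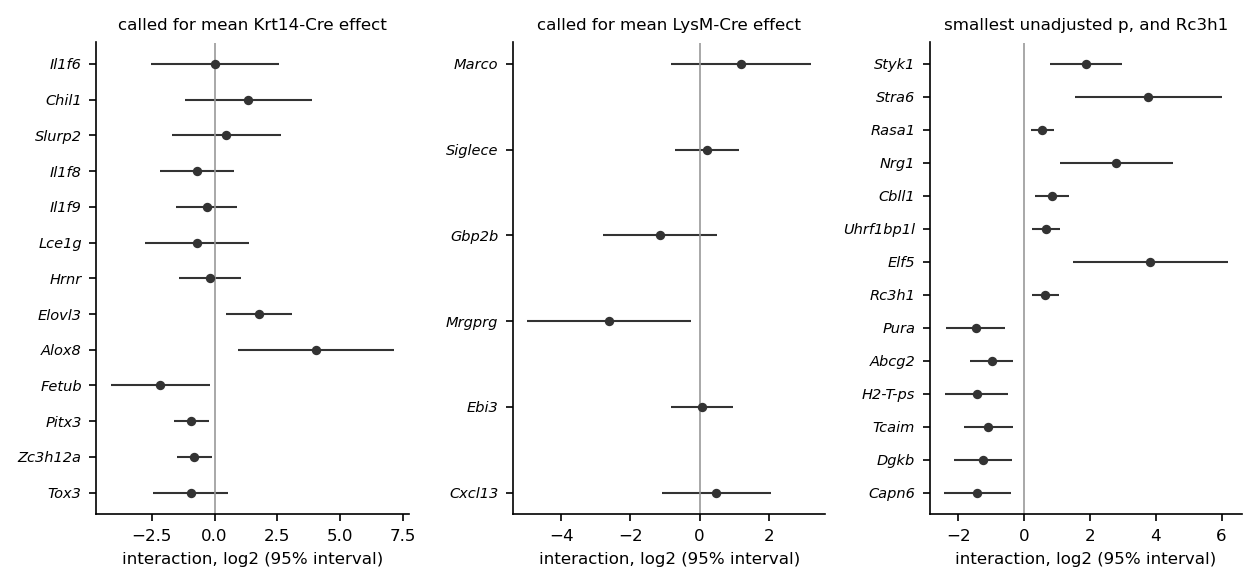
Interaction on the log2 scale with its 95% interval. Left, a choice from the 126 genes called for the mean Krt14-Cre effect. Middle, the 6 genes called for the mean LysM-Cre effect. Right, named genes with small unadjusted p. The left panel holds every one of the 126 with an unadjusted p under 0.05 (Alox8, Elovl3, Fetub, Pitx3 and Zc3h12a). Its share of intervals without 0 is therefore not that of the 126. In the left and middle panels most intervals contain 0, as for Il1f6 at 0.00 and Ebi3 at 0.07. The genes on the right were chosen for their p, so their distance from 0 is a description.

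The genes below were chosen for a small interaction p, so their values describe where the largest departures lay and carry no test of their own. Several positive ones were moderate in size. Rasa1, which encodes a GTPase-activating protein that switches off Ras, measured 58.1, 57.1, 52.7 and 52.6 CPM in Control, 42.6, 42.6, 47.2 and 39.9 CPM in EKO, 48.1, 48.7, 45.4 and 46.8 CPM in MKO and 57.5, 59.5, 53.3 and 47.4 CPM in EMdKO. Both single knockouts lay wholly below Control, and EMdKO mice 1 to 3 were at or above the lowest Control level, with mouse 4 between the MKO mice. The interaction was 0.56 ± 0.16 and varied only from 0.51 to 0.62 over the 16 fits with 1 library left out. For Cbll1, the E3 ubiquitin ligase known as Hakai, only the means of both single knockouts lay below those of Control and EMdKO. They were 39.3, 28.2, 33.4 and 43.2 CPM in Control, EKO, MKO and EMdKO. MKO mouse 4 was above Control mice 3 and 4, and EMdKO ran from 32.1 to 58.8 CPM. The interaction of Cbll1 was 0.85 ± 0.24, and 0.66 without EMdKO mouse 3. The means of Uhrf1bp1l were 83.6, 66.1, 60.0 and 76.1 CPM, again lower in both single knockouts, with an interaction of 0.68 ± 0.20.

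Rc3h1 encodes Roquin-1, an RNA-binding protein that represses many of the transcripts that MCPIP1 cleaves. It measured 180, 183, 150 and 148 CPM in Control, 122, 152, 143 and 166 CPM in EKO, 152, 144, 141 and 147 CPM in MKO and 196, 166, 235 and 204 CPM in EMdKO. EMdKO lay wholly above MKO and touched the highest EKO mouse. The interaction of Rc3h1 was 0.64 ± 0.19 (95% interval 0.23 to 1.05, unadjusted p = 0.00449) and stayed between 0.55 and 0.72 with single libraries left out. Of the 10 tested decay factors of the CCCH and Roquin families, Rc3h1 and Zc3h12a were the 2 with an unadjusted p under 0.05, in opposite directions. Over all genes tested the share under 0.05 was 3.41%. The list's median was 0.34.

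Styk1, a receptor-like kinase, had the smallest unadjusted p among the named positive genes (0.00195). It measured 4.46, 2.44, 2.34 and 2.37 CPM in Control, 2.06, 4.10, 4.00 and 2.23 CPM in EKO, 0.784, 0.885, 1.55 and 0.502 CPM in MKO and 3.56, 5.09, 3.52 and 2.94 CPM in EMdKO. MKO lay wholly below the other 3 groups, which overlapped. Its interaction was 1.89 ± 0.52, with MKO at -1.61 ± 0.39 from Control and EMdKO at 0.28 ± 0.34 from EKO.

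Ligands of the EGF receptor family drive keratinocyte growth and wound closure. Of their list, 10 of the 11 genes on the list of EGF receptor ligands and ERBB receptors had a positive interaction, beside 51.5% of all genes, and the median was 0.62 beside 0.01. Epgn, Nrg1, Tgfa and Hbegf, all ligands, had an unadjusted p under 0.05, as had 3.41% of all genes, and none of these ligands passed adjustment. Epgn, which encodes epigen, measured 10.9, 16.7, 2.62 and 6.12 CPM in Control, 5.06, 7.85, 11.2 and 21.0 CPM in EKO, 2.98, 3.16, 5 and 3.26 CPM in MKO and 10.6, 17.6, 33.3 and 56.0 CPM in EMdKO. All EMdKO mice were above all MKO mice, and they overlapped with the upper EKO and Control mice. The log2 difference of Epgn was 0.32 ± 0.55 without LysM-Cre and 3.02 ± 0.57 with it, an interaction of 2.70 ± 0.80 (unadjusted p = 0.00401), and 1.28 in limma-voom (unadjusted p = 0.181).

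Nrg1, encoding the ERBB3 ligand neuregulin, measured 7.80, 8.34, 1.87 and 1.62 CPM in Control, 1.55, 3.92, 2.18 and 2.37 CPM in EKO, 0.470, 1.90, 1.43 and 0.627 CPM in MKO and 3.98, 3.03, 7.04 and 2.42 CPM in EMdKO. EMdKO lay above MKO in every mouse, and Control held both high and low mice. The interaction of Nrg1 was 2.81 ± 0.81, 1.36 in limma-voom and 2.05 after adjusting for the hair shaft score. Tgfa, the transforming growth factor alpha gene, had 1.21 ± 0.48, which was 0.73 without Control mouse 1 and 0.42 in limma-voom. Hbegf, the heparin-binding ligand, had 1.35 ± 0.57, which was 0.74 without Control mouse 2 and 0.37 in limma-voom. The remaining ligands Areg, Ereg, Btc and Egf had 0.95, 0.62, 0.29 and -0.12, and the receptors Egfr, Erbb2 and Erbb3 had 0.30, 0.05 and 0.26. Tgfa and these other members are named because they complete the list.

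As a mean log2 CPM over the 11 genes, the EGF receptor list scored 4.8, 4.96, 4.15 and 4.6 in Control, 4.25, 4.59, 4.34 and 4.50 in EKO, 4.00, 4.36, 4.24 and 3.89 in MKO and 4.64, 4.47, 4.97 and 4.90 in EMdKO. Every EMdKO mouse was above every MKO mouse, while Control and EKO overlapped with each other and with both. The interaction of the score was 0.83 ± 0.25 (SE over mice), and the list's median interaction lay between 0.40 and 0.82 with single libraries left out. EMdKO mouse 3, the mouse high in hair shaft genes, held the top EMdKO score, and without it the median was 0.40. The part of hair growth stage in these values was not tested.

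**Figure D3:**
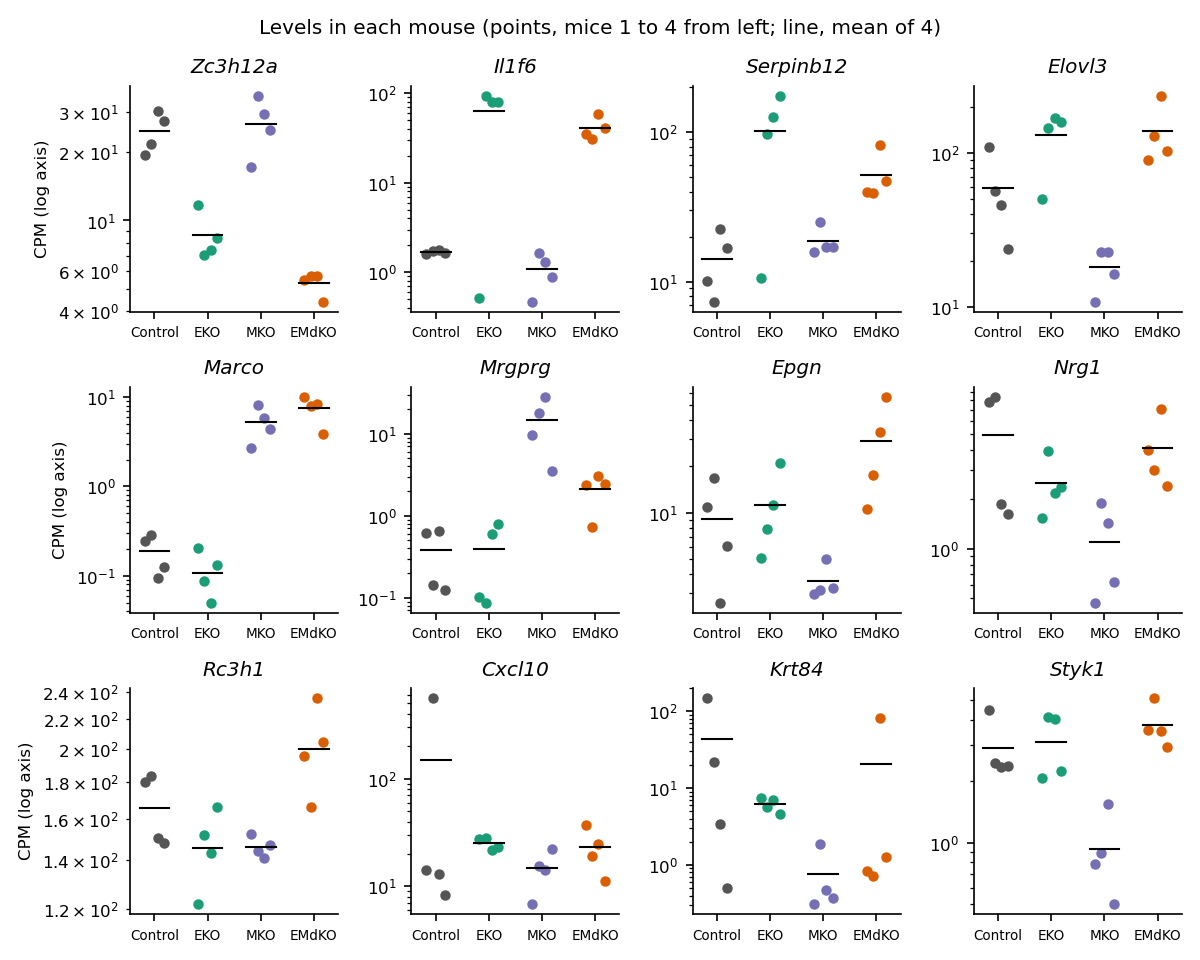
Levels of 12 genes in each mouse (CPM, log axis, mice 1 to 4 from left to right within a group, bar at the mean of 4; levels under 0.05 CPM are drawn at 0.05). Il1f6 and Serpinb12 are high in EKO mice 2 to 4 and in all EMdKO mice, Styk1 and Epgn are low in MKO, and the high Control value of Cxcl10 comes from mouse 2 alone.

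Immediate early and heat shock genes, which respond within minutes to growth factors and stress, also leaned to positive values. Of 18 genes, 16 were above 0, beside 51.5% of all genes, and the median was 0.69, beside 0.01. Fosl1, Dusp1 and Hspa1a had an unadjusted p under 0.05, as had 3.41% of all genes. Fosl1, an AP-1 subunit, had an interaction of 2.54 ± 0.86 and Dusp1, a phosphatase of MAP kinases, one of 1.07 ± 0.44, which was 0.67 without EMdKO mouse 3 (unadjusted p = 0.0954). The score of the list was 5.44, 5.65, 5.08 and 5.47 in Control, 5.32, 5.28, 4.64 and 5.18 in EKO, 5.23, 5.27, 5.10 and 4.90 in MKO and 5.39, 5.50, 6.13 and 5.63 in EMdKO. All EMdKO mice were above all EKO and MKO mice, and Control mice 1, 2 and 4 lay within the EMdKO range. The interaction of the score was 0.84 ± 0.27, and the list's median stayed between 0.57 and 0.79 with single libraries left out. These transcripts also respond to tissue handling, for which the labels give no record, and its part was not tested.

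For the 6 genes named next, with negative interactions of small p, the means of both single knockouts lay above those of Control and of EMdKO. Abcg2, a membrane efflux transporter, measured 6.69, 11.7, 12.2 and 7.37 CPM in Control, 13.2, 17.4, 17.6 and 14.8 CPM in EKO, 13.6, 11.8, 12.6 and 14.9 CPM in MKO and 9.61, 12.5, 8.56 and 14.2 CPM in EMdKO. EKO lay wholly above Control, and EMdKO overlapped with all 3 other groups. The interaction of Abcg2 was -0.98 ± 0.31 (unadjusted p = 0.00585). Pura, a protein that binds purine-rich DNA and RNA, was lowest in EMdKO, with means of 2.87, 4.05, 4.01 and 2.01 CPM in Control, EKO, MKO and EMdKO and an interaction of -1.46 ± 0.43. Tcaim, Dgkb, which encodes a diacylglycerol kinase, and Capn6, which encodes a member of the calpain family, had -1.08 ± 0.36, -1.24 ± 0.41 and -1.41 ± 0.48. H2-T-ps, a class I histocompatibility pseudogene with close copies, had -1.44 ± 0.46 and its counts are uncertain for that reason.

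Of the 6 tested B and plasma cell genes, 5 had a negative interaction, beside 6617 of all 13633 genes. The median of the 6 genes was -0.44, and none reached an unadjusted p under 0.05. Pou2af1, a transcriptional coactivator of B cells, measured 1.88, 12.1, 9.18 and 1.38 CPM in MKO and 1.08, 1.21, 0.761 and 1.36 CPM in EMdKO, and at most 1.73 CPM in the 8 mice without LysM-Cre. The lowest MKO mouse lay just above the highest EMdKO mouse. Its interaction was -1.88 ± 1.09 (unadjusted p = 0.105), and -0.92 without EKO mouse 2. Jchain, which joins secreted immunoglobulins and was named after its values were seen, gave 2.35, 30.2, 16 and 2.76 CPM in MKO and 0.856 to 3.63 CPM in EMdKO, an interaction of -2.24 ± 1.42, which was -1.38 without MKO mouse 2. Sdc1, the syndecan of plasma cells and of keratinocytes, was the positive member at 0.56 ± 0.36, with means of 297 CPM in MKO and 408 CPM in EMdKO.

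The largest positive interactions on the log2 scale belonged to hair shaft genes, and these followed single mice. All 33 tested hair shaft and inner root sheath genes were positive with a median of 6.74, and 21 had an unadjusted p under 0.05. Over all genes tested, 51.5% were positive and 3.41% had an unadjusted p under 0.05. With the hair keratin-associated (Krtap) genes added, 52 of 67 were under 0.05, which is 52 of the 465 genes at that threshold. The hair shaft score was 8.70, 5.91, 4.10 and -1.19 in Control mice 1 to 4, 5.81, 2.93, 4.18 and 0.59 in EKO, -1.30, -1.07, -1.15 and 2.14 in MKO and 0.16, -1.14, 6.02 and -1.04 in EMdKO. Mice differed within every group, but the groups did not share one range. The highest MKO score, 2.14 for mouse 4, was below those of Control mice 1 to 3 and EKO mice 1 to 3. The lowest EKO score was 0.59, above Control mouse 4 at -1.19. The scores of 3 MKO and 2 EMdKO mice were at the level of Control mouse 4, and EMdKO mouse 3 was the 1 high EMdKO mouse.

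Krt84, a keratin of the hair cuticle, measured 147, 21.7, 3.36 and 0.5 CPM in Control, 7.43, 5.76, 6.92 and 4.6 CPM in EKO, 0.314, 1.90, 0.477 and 0.377 CPM in MKO and 0.727 to 1.26 CPM in EMdKO mice 1, 2 and 4 and 80.5 CPM in EMdKO mouse 3. Its interaction was 7.52 ± 2.25 with all libraries, 3.07 without EMdKO mouse 3 and 1.05 after adjusting for the hair shaft score. The median of the 33 hair shaft genes was 0.67 without EMdKO mouse 3 and -0.45 with the covariate. Of the hair shaft and Krtap genes, 2 were under 0.05 without EMdKO mouse 3 and 11 of 67 with the covariate. The covariate is the mean of the hair shaft genes themselves, so the fall of their values with it is built in and tests nothing. As a mean over libraries the score itself had an interaction of 2.35 ± 3.02. The stage of the hair cycle of each mouse is not given in the labels, and its part was not tested. Melanocyte genes, which are expressed in growing hair bulbs, had a median of 1.58 (10 of 11 positive), 0.57 without Control mouse 1 and 0.14 with the covariate. Stra6, the cell-surface receptor for retinol-binding protein, and Elf5, an ETS transcription factor, were highest in Control mouse 1, at 219 and 125 CPM. Their interactions of 3.78 ± 1.05 and 3.84 ± 1.11 were 2.10 and 2.31 without that mouse.

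**Figure D4:**
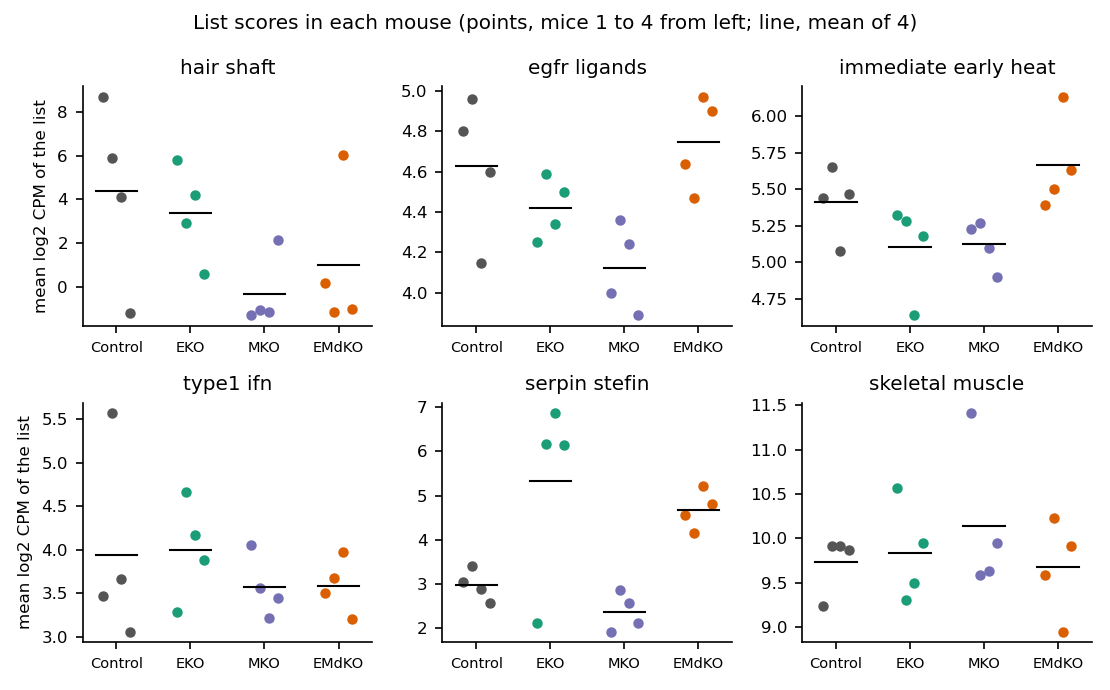
Score of 6 gene lists in each mouse (mean log2 CPM of the list, mice 1 to 4 from left to right within a group, bar at the mean of 4). The EGF receptor list scores 4.47 to 4.97 in EMdKO and 3.89 to 4.36 in MKO, and single mice stand apart for hair shaft (EMdKO mouse 3 at 6.02), interferon response (Control mouse 2 at 5.57), serpins (EKO mouse 1 at 2.13) and skeletal muscle (MKO mouse 1 at 11.41).

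The positive values of chemokine and interferon response genes rested on Control mouse 2. Cxcl10, an interferon-induced chemokine, measured 14.2, 559, 13.1 and 8.37 CPM in Control, 27.6, 28.4, 22.0 and 23.0 CPM in EKO, 6.90, 15.5, 14.1 and 22.3 CPM in MKO and 37.4, 19.1, 24.9 and 11.1 CPM in EMdKO. Its interaction of 3.21 ± 1.37 was -0.43 without Control mouse 2. Over 23 chemokines the median was 0.48 with all libraries and -0.07 without that mouse, and over 23 type I interferon response genes it was 0.43 and -0.60. Col6a5, a collagen VI chain, rested on 1 MKO mouse, with 17.4, 33.1, 713 and 11.4 CPM in MKO and at most 12.6 CPM in the other groups. Its interaction of -4.34 ± 1.36 was -1.11 without MKO mouse 3.

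All 25 skeletal muscle genes, from the thin muscle layer below the skin, had negative values with a median of -0.70, and none had an unadjusted p under 0.05. Of all 13633 genes tested, 6617 were negative and 3.41% had an unadjusted p under 0.05. The muscle score was 11.41 in MKO mouse 1 and 8.95 to 10.57 in the other 15 libraries, and the median was -0.11 without MKO mouse 1 and -0.33 without EKO mouse 1. The respiratory chain subunits, 23 of 24 negative with a median of -0.33, had a median of -0.06 without MKO mouse 1. How much muscle each piece of skin held was not tested.

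Of 36 lists, 29 had a median between -0.5 and 0.5, 23 medians were positive, 12 were negative and 1 was 0. Over all genes tested, 51.5% of the interactions were positive. Transcripts described as MCPIP1 targets in other cells had 15 of 18 positive values and a median of 0.35, which was 0.15 without Control mouse 2. Among them Nfkbiz, encoding a nuclear regulator of NF-kB target genes that MCPIP1 is known to restrain, measured 515, 371, 654 and 463 CPM in EMdKO and 164 to 437 CPM in the other 12 mice. EMdKO mice 1, 3 and 4 were above all others, and the interaction was 0.72 ± 0.38 (unadjusted p = 0.0768), and 0.44 without Control mouse 2. Antimicrobial peptides and alarmins had a median of 0.78, with 10 of 12 positive, and 0.55 without MKO mouse 1 to 1.39 without EKO mouse 3. Stress keratins and wound genes, a list that shares Hbegf, Areg, Ereg and Epgn with the EGF receptor list, had a median of 0.73 with 9 of 10 positive. NF-kB subunits and inhibitors had a median of 0.14. T and NK cell markers had one of 0.34, which was -0.07 without Control mouse 2. Cell cycle genes had -0.05, and -0.40 without Control mouse 1, and fibroblast collagens had -0.06, and 0.13 without MKO mouse 1.

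**Figure D5:**
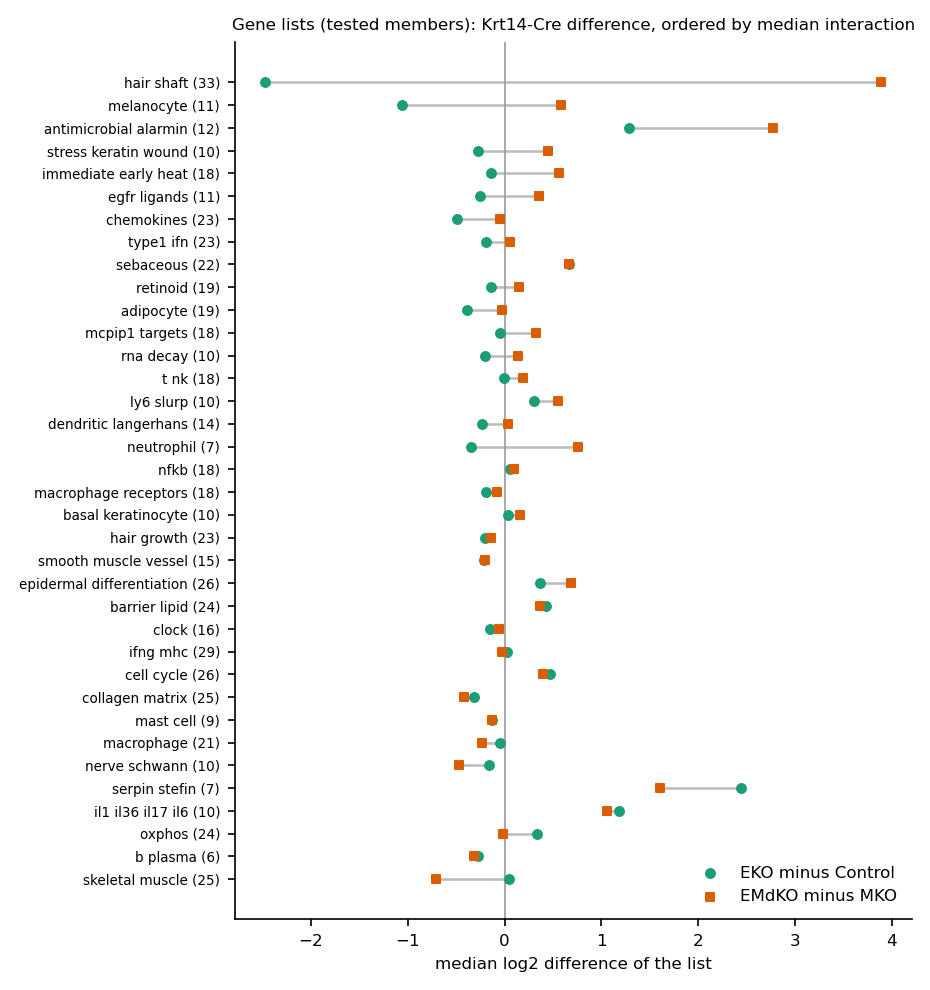
Median log2 difference of each gene list between EKO and Control (circles) and between EMdKO and MKO (squares), ordered by median interaction, with the number of tested members in brackets. Circle and square are far apart for hair shaft (-2.47 and 3.89), and lie close together for sebaceous gland genes (0.66 and 0.67) and for cell cycle genes (0.47 and 0.40). Their distance is not the median interaction, which was 0.43 for sebaceous gland genes and -0.05 for cell cycle genes.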

How the data were processed

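Per the labels' protocols, skin was snap-frozen and its RNA made into Ion AmpliSeq Transcriptome Mouse libraries, in which amplicons of targeted transcripts are read. Raw read counts per target were deposited, from HTSeq 0.6.0, per the submitters' processing notes, which also name DESeq2 1.18.1. Aligner, genome build and annotation are not given in the sources. The summary lines of each file (3.111 to 5.252% of reads) were removed. Of 23930 targets, 22452 found a symbol in RefSeq GRCm38.p6 and 110 in GENCODE vM21, and the other 1368 held at most 0.31% of a library's counts. No 2 libraries looked like copies (smallest chi-square per degree of freedom 15.25). Xist had at most 5 counts in each library and Y-linked genes were present in all 16.

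Counts were fitted in edgeR 4.0.16 (R 4.3.3; quasi-likelihood, TMM scaling, filterByExpr, 1 mean per group, 16 libraries, 12 residual degrees of freedom, biological coefficient of variation 0.31). P-values were Benjamini-Hochberg adjusted over 13633 genes and called under 0.05. The same fit gave the mean effect of each Cre over both backgrounds of the other. Errors of log2 values are standard errors of that fit, and intervals are 95%. Genes with a group at 0 counts (12) got no interval. List scores are means of log2 CPM with a prior count of 2. CPM errors are SD over 4 mice, and these cover the spread between mice sampled once.

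Named genes were Zc3h12a, Krt14, Lyz2 and Marco, the 12 with the smallest interaction p in each direction (symbol, mean log2 CPM of at least 1), the 2 smallest in each of 36 gene lists and the 6 smallest for each mean Cre effect, 102 in all. Others are said to be named after their values were seen, or are all called members or the full membership of a list. The comparison, members and lists were chosen with earlier results of these data known. A list of red blood cell genes had fewer than 3 tested members and was not used. Alternatives were DESeq2 1.42.0, limma-voom (3.58.1) with sample weights, other scaling and filters, covariates, the mouse number as a block and each library left out. The fit was tested on simulated data.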

Additional observations from a re-analysis of the deposited data

Results flagged for a closer look

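List scores were examined for single mice far from the other 3 of their group, in 144 groups of 4 values. In 13 of them a mouse stood apart by Dixon's criterion, where chance flags about 1 in 20 groups, or 7.2. EKO mouse 1 was low for IL-1 and IL-36 ligands (3.38 against 5.41 to 5.76 in the other 3 EKO mice), for serpins and stefins (2.13 against 6.14 to 6.86) and for sebaceous gland genes (5.84 against 6.83 to 6.96). MKO mouse 1 was high for mast cell markers (4.32 against 3.68 to 3.74) and for smooth muscle and vessel genes (6.29 against 5.78 to 5.85), and low for dendritic and Langerhans cell markers (3.29 against 3.67 to 3.74). Control mouse 1 was high for cell cycle genes (4.44 against 3.25 to 3.45) and low for skeletal muscle genes (9.24 against 9.87 to 9.91). Control mouse 2 was high for the described MCPIP1 targets (4.56 against 3.33 to 3.48). MKO mouse 4 was high for hair shaft genes (2.14 against -1.30 to -1.07) and low for circadian clock genes (4.94 against 5.17 to 5.2). EMdKO mouse 1 was high for clock genes (5.33 against 4.76 to 4.82), and EMdKO mouse 3 for retinoid genes (4.49 against 4.03 to 4.10). The reasons were not tested.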

How the results depend on the processing

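The interaction called 0 genes in the edgeR fits with other scaling or filters, with covariates, with limma-voom and with any single library left out (0 to 0), and 3 in DESeq2. Genes with an unadjusted p under 0.05 numbered 247 without EMdKO mouse 3 to 711 without Control mouse 4, 301 with the hair covariate, 501 in DESeq2 and 483 in limma-voom. The mean Krt14-Cre effect called 126 genes, 40 (without EKO mouse 2) to 356 (without EKO mouse 1) with single libraries left out, 316 in DESeq2, 588 in limma-voom (367 higher, 221 lower) and 578 with the hair covariate and without EKO mouse 1, a fit chosen after seeing the data. The mean LysM-Cre effect called 6, 4 to 25 with single libraries left out, 16 with the muscle covariate (10 higher, 6 lower), 259 in DESeq2 (89 higher, 170 lower) and 66 in limma-voom (32 higher, 34 lower). Whether the mouse numbers pair the samples is not given in the labels. Of 24 same-number pairs, 7 had correlations over 0.1 (range -0.543 to 0.61), and 5 of 16 libraries correlated best with their own number. These correlations do not settle whether litters or processing were shared, since differences between single mice also enter them. With the number as a replicate block, 0 genes were called for the interaction, 103 for Krt14-Cre and 6 for LysM-Cre. Of 2652 values of the 102 named genes under alternatives, 2609 kept their direction, 43 in 16 genes reversed, and none was called. With the hair covariate and without EKO mouse 1, reversed values were Chil1 -0.22, Cxcl13 -0.16, Ebi3 -0.11, Il1f6 -0.62, Lyz2 -0.10, Psca -0.34, Slurp2 -0.43 and Tgm3 -0.07, and Cxcl13 was -0.01 with the covariate alone. In limma-voom they were Csf3r -0.13, Ebi3 -0.14, Lcn2 -0.02, Mx1 -0.57, Psca -0.25, Rsad2 -0.58, Slurp2 -0.01 and Tgm3 -0.45. With the muscle covariate they were Il1f6 -0.18, Psca -0.07 and Slurp2 -0.18, and Il1f6 was -0.05 with upper-quartile and 0.00 with relative log expression scaling. With single libraries left out, values ranged for Csf3r from -0.34 to 1.31, Cxcl10 from -0.43 to 3.60, Ebi3 from -0.25 to 0.29, Il1f6 from -0.41 to 0.27, Krt14 from -0.64 to 0.07, Lyz2 from -0.09 to 0.41, Mx1 from -0.55 to 1.66, Psca from -0.17 to 1.34, Rsad2 from -0.98 to 2.67, Serpinb3a from -1.36 to 1.07 and Siglece from 0.00 to 0.42. The cause of these reversals was not tested.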

Other observations

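Additivity depends on the scale on which it is read. Il1f6 had a log2 interaction of 0.00, whereas its difference of differences in CPM was -21.2 ± 21.9 (SE, n = 4 per group), with mean levels of 1.68 CPM in Control and 1.08 CPM in MKO. For Chil1 the log2 interaction was 1.35 and the CPM value -37.7 ± 32.2, of opposite sign. Rasa1 and Rc3h1 had the same sign on both scales, with 19.2 ± 3.48 and 73.8 ± 19.6 CPM, as did Pitx3 at -2.75 ± 0.833 CPM and Mrgprg at -12.6 ± 5.32 CPM.

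The 3 genes called by DESeq2, Krtap4-1, Krtap5-4 and Krtap19-9b, are keratin-associated proteins of the hair shaft and were named after their values were seen. Each had 0 counts in all 4 MKO mice and in 3 of the 4 EMdKO mice, with 8.56, 8.75 and 10.8 CPM in EMdKO mouse 3.

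Sprr4 and Plet1, both expressed in differentiating epidermis or hair follicle epithelium, had their lowest mean in MKO. Plet1 measured 69.1, 183, 177 and 180 CPM in MKO and 800, 439, 819 and 340 CPM in EMdKO, with Control at 216 to 553 CPM and EKO at 174 to 676 CPM. Its interaction was 1.74 ± 0.61 (unadjusted p = 0.0119 in edgeR), and 1.06 in limma-voom. Sprr4 had one of 1.83 ± 0.89, and 1.16 in limma-voom. Lgr6, a receptor of follicle stem cells, had -0.94 ± 0.36, with EKO at 22.6 to 36.5 CPM and EMdKO at 18.8 to 25.1 CPM. Col14a1, a fibril-associated collagen, measured 14.1 to 31.8 CPM in EMdKO, beside means of 42.4 CPM in Control, 42.5 in EKO and 38.7 in MKO, and its interaction was -0.85 ± 0.35.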
